A study of Schizosaccharomyces pombe with 10 samples.

Results

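Fission yeast cells (Schizosaccharomyces pombe) whose sty1 gene is labelled as deleted and whose Atf1 is the HA-tagged, phosphomimicking form Atf1.10D were compared with wild-type cells after hydrogen peroxide. The comparison took 2 of the 10 libraries of the series, treated 10D and treated WT, picked out by their labels. It covered the 4959 of 7017 genes in the count table whose mean level over these 2 libraries was at least 10 CPM, a count divided by the scaled size of its library.

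Cultures grew exponentially in minimal medium, and the treated ones received 1 mM H2O2 for 15 min. PolyA-enriched RNA was sequenced from 5 strains, each once untreated and once treated. The 10D strain is labelled Δsty1 HA-Atf1.10D with the phosphomimicking Atf1. The 10M strain is labelled Δsty1 HA-Atf1.10M with an Atf1 that cannot be phosphorylated, HA is Δsty1 with HA-tagged wild-type Atf1, STY is Δsty1 with wild-type Atf1, and WT is the wild type. All strains but WT are thus labelled as lacking Sty1, and the HA tag is shared by 10D, 10M and HA. The promoter and locus of the tagged atf1 copies are not given in the sources used here.

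Sty1 is the stress-activated MAP kinase of fission yeast, switched on by the kinase Wis1 and counterpart of the mammalian kinase p38. It phosphorylates the bZIP transcription factor Atf1, which pairs with Pcr1 and turns on stress genes for catalase, glycerol and trehalose metabolism, small stress proteins and the phosphatases that switch Sty1 off again. Another bZIP factor, Pap1, is oxidised by peroxide through the peroxiredoxin Tpx1, gathers in the nucleus and turns on genes for thioredoxin reductase and drug export. The sulfiredoxin Srx1 returns over-oxidised Tpx1 to use, which ties the Atf1 and Pap1 branches together. The design text of the series asks how phosphorylated and unphosphorylatable Atf1 set gene expression, before and after peroxide.

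Every strain and treatment had 1 library, so no difference below has a replicate check and no p-value is given. Totals were 26503471 counts in treated 10D and 9526891 in treated WT, within 9178795 to 26503471 over the series, and a count of 0 allowed up to 0.120 CPM in treated 10D and 0.320 CPM in treated WT. Depth differed with strain, treated 10D being the deepest library of all, and no label names a batch, so strain and batch cannot be told apart. A gene is called higher or lower here when its ratio of scaled CPM reached 2-fold and the exact binomial 95% interval of the ratio excluded 1. Intervals and floors cover counting error only, because no group has a repeat library. PCR copies of 1 molecule are counted as separate reads, which the intervals do not allow for. CPM values are not scaled for gene length, so levels are compared between libraries and not between genes.

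The deleted gene was checked first. The sty1 transcript (SPAC24B11.06c) stood at 129.9 CPM in treated 10D, 121 CPM in treated 10M, 125 CPM in treated HA, 9.11 CPM in treated STY and 305 CPM in treated WT. STY was low, whereas the libraries labelled 10D, 10M and HA held sty1 counts at less than the WT level and well above the STY level, which their Δsty1 label does not provide for. Every statement on them therefore concerns the library with that label. Transcripts of atf1 (SPBC29B5.01) stood at 744 CPM in treated 10D, 398 CPM in treated 10M, 660.1 CPM in treated HA, 30.4 CPM in treated STY and 643 CPM in treated WT, so treated 10D and treated WT differed little in atf1 (log2 ratio 0.21, 95% interval 0.17 to 0.25). Before treatment atf1 was at 524 CPM in 10D, against 143 CPM in WT. The marker gene leu1 was at 2902 CPM in treated 10D, 2876 CPM in 10M and 5573 CPM in HA, against 1057 CPM in STY and 680.1 CPM in WT, whereas ura4 was at 104 CPM in treated 10D and 136 CPM in treated WT. Of the mating type markers, 0 of 3 tested M genes and 0 of 3 tested P genes were called between treated 10D and treated WT.

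After peroxide, the library labelled 10D was within 2-fold of WT at most genes and below it at many stress genes. Of 4959 genes, 93.3% had a ratio under 2-fold, and the median log2 ratio of 10D over WT was 0.055. In all, 334 genes were called (6.74%), 131 of them higher in 10D (2.64%) and 203 lower (4.09%). At 4-fold, 29 were higher and 41 lower, and at 8-fold 10 were higher and 16 lower. With a mean of at least 50 CPM required, 79 were higher and 117 lower, and with no filter on the level 207 were higher and 459 lower. Of the 203 lower genes, 49 were under 10 CPM in treated 10D and entered the comparison through WT, and 21 of the 131 higher genes were under 10 CPM in treated WT and entered through 10D. For scale, the same rule on the same genes called 160 (3.23%) between treated 10M and treated HA and 214 (4.32%) between treated HA and treated STY, each again 1 library against 1.

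**Figure D1:**
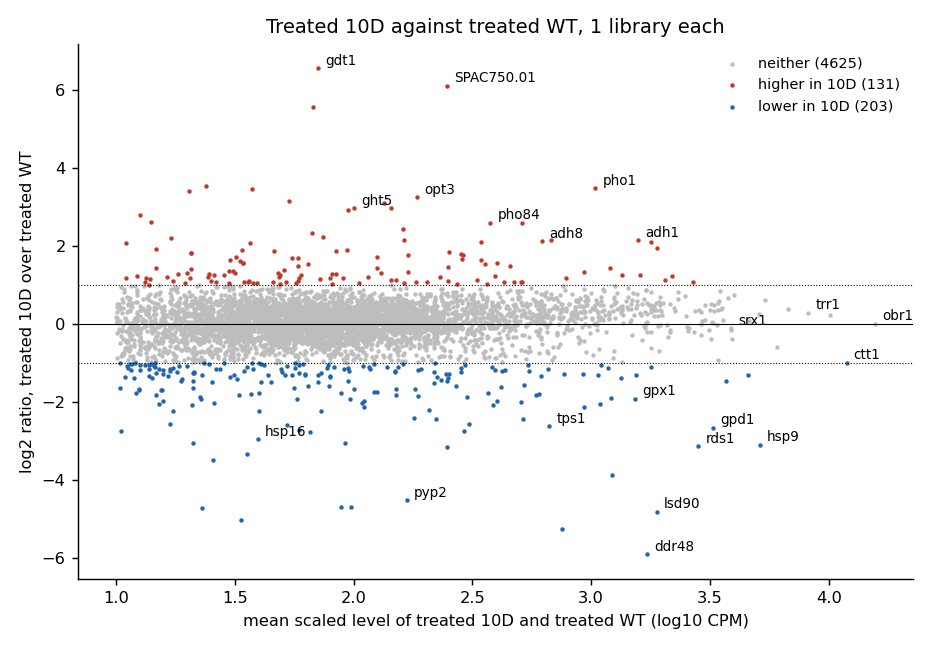
Log2 ratio of treated 10D over treated WT (vertical axis) against the mean scaled level of both libraries in log10 CPM (horizontal axis), 1 point for each of 4959 genes, with genes called higher in red (131), called lower in blue (203) and the others in grey (4625). The dotted lines mark 2-fold; ddr48 and lsd90 lie near the bottom at −5.91 and −4.82, whereas obr1, trr1 and srx1 lie near 0 at the right.

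The genes farthest below WT included several known stress genes. The stress gene ddr48, named for DNA damage response in budding yeast, was at 55.9 CPM in treated 10D, 14.9 CPM in 10M, 6.03 CPM in HA, 15.9 CPM in STY and 3371 CPM in WT, a log2 ratio of 10D over WT of −5.91, 95% interval −5.99 to −5.84. WT was high, and 10D stood above the other 3 libraries by far less than it stood below WT. For lsd90 the levels were 129 CPM in treated 10D, 9.29 CPM in 10M, 5.13 CPM in HA, 5.85 CPM in STY and 3646 CPM in WT, with a ratio of −4.82, 95% interval −4.87 to −4.77. The uncharacterised SPACUNK4.17 was at 38.0 CPM in treated 10D and 1462 CPM in treated WT (−5.26, 95% interval −5.36 to −5.17). In all 3 genes WT was far above 10D, and in ddr48 and lsd90 10D was above 10M, HA and STY.

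pyp2, which encodes the tyrosine phosphatase that switches Sty1 off, had the lowest ratio among the genes of the kinase cascade and its phosphatases and downstream kinases. It was at 13.8 CPM in treated 10D, 17.5 CPM in 10M, 9.96 CPM in HA, 6.19 CPM in STY and 321 CPM in WT, a ratio of −4.52, 95% interval −4.70 to −4.37. All 4 libraries labelled Δsty1 lay low, and WT stood apart. Before treatment pyp2 was at 22.3 CPM in 10D and 16.5 CPM in WT.

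The remaining genes among the 12 lowest protein-coding ratios were SPAPJ695.02 (−5.02), SPAPB1A11.03 (−4.73), SPAC4H3.03c (−4.71), the WW-domain gene wwm3 (−4.70), rtc3 (−3.87), aif1, named after the mitochondrial apoptosis-inducing factor (−3.34), gut2, the mitochondrial glycerol-3-phosphate dehydrogenase (−3.15), and rds1 (−3.14). Several rest on few reads in 10D: SPAPB1A11.03 had 39 counts in treated 10D against 417 in treated WT, and SPAPJ695.02 had 47 in treated 10D against 608 in treated WT. In contrast rds1 had 14381 counts in treated 10D and 47586 in treated WT. SPAPJ695.02 was already apart before treatment, at 0.664 CPM in untreated 10D and 67.0 CPM in untreated WT. After treatment it was at 1.89 CPM in 10D, 0.860 CPM in 10M, 0.402 CPM in HA, 0.225 CPM in STY and 64.9 CPM in WT, so WT alone of the treated libraries held it above 2 CPM. The gene next to wwm3 in the reference order, fbp1, encoding fructose-1,6-bisphosphatase, was also called lower (−2.06).

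Most genes that Sty1 and Atf1 are known to drive were lower in treated 10D. Of 28 tested members of the Sty1-Atf1 stress list, 19 were lower in treated 10D than in treated WT, 1 was higher and 8 were neither, with a median log2 ratio of −1.90 beside 0.055 over all genes, of which 4.09% were lower. The remaining member, gld1, was under the level filter. The higher member was nrg1, at 148 CPM in treated 10D, 1.45 CPM in 10M, 1.51 CPM in HA, 0.562 CPM in STY and 39.6 CPM in WT (1.90), present in 10D and WT and near 0 in the other 3 libraries. Of the 17 tested small stress proteins, 10 were lower and 0 higher (median −1.48), and of 11 tested genes of trehalose and glycerol metabolism, 6 were lower and 0 higher (median −1.58). These lists share members, so their counts are not separate.

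Among the small stress proteins, the heat shock protein gene hsp9 was at 1069 CPM in treated 10D, 53.3 CPM in 10M, 9.56 CPM in HA, 4.39 CPM in STY and 9163 CPM in WT (−3.10). Treated 10D was far above the other libraries labelled Δsty1 and still well under WT. The LEA-like stress gene ish1 gave the same order, with 348 CPM in treated 10D, 36.9 CPM in HA and 1518 CPM in WT (−2.13), and so did cta3, a cation-transporting ATPase, with 56.5 CPM in treated 10D, 1.11 CPM in HA and 303 CPM in WT (−2.42). The lifespan gene ecl1 was at 1957 CPM in treated 10D and 5452 CPM in treated WT (−1.48). Its relative ecl2 was within 2-fold of WT (0.11), and so were the DJ-1 family genes hsp3101 (−0.51), hsp3104 (0.29) and hsp3102, the highest of the list (0.98).

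In osmolyte metabolism, gpd1, the glycerol-3-phosphate dehydrogenase that makes glycerol under stress, was at 888 CPM in treated 10D, 207 CPM in 10M, 362 CPM in HA, 513 CPM in STY and 5641 CPM in WT (−2.67, 95% interval −2.69 to −2.64). The trehalose-6-phosphate synthase gene tps1 was at 186 CPM in treated 10D, 325 CPM in 10M, 439.5 CPM in HA, 219 CPM in STY and 1148 CPM in WT (−2.63, 95% interval −2.68 to −2.58). The 2 genes differ in where 10D stood: gpd1 was higher in 10D than in HA, and tps1 was lower in 10D than in each of the other treated libraries. The trehalase gene ntp1 (−1.99) and gut2 (−3.15) were also lower than in WT, while gpd2 (−0.046), the trehalose phosphatase gene tpp1 (−0.49) and the dihydroxyacetone kinase gene dak1 (0.37) were not called.

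**Figure D2:**
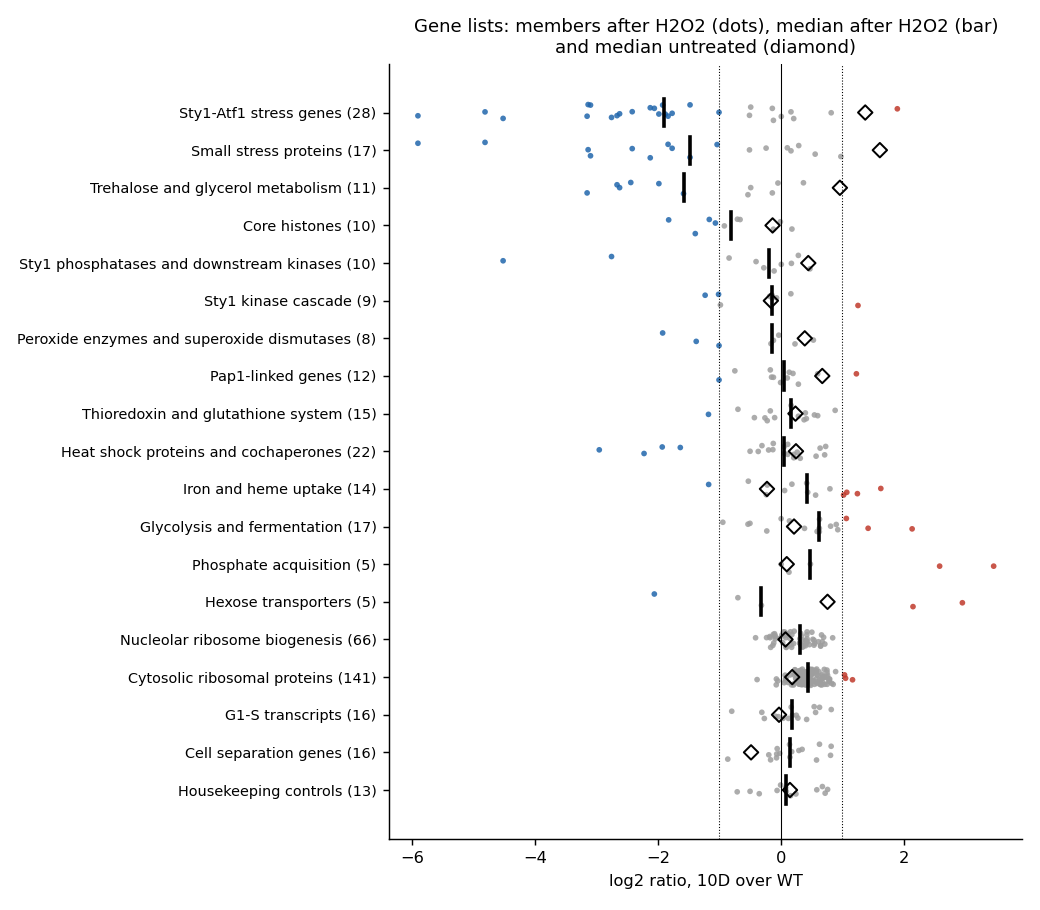
Log2 ratios of 10D over WT (horizontal axis) for the tested members of 19 gene lists (rows, with the number tested), after H2O2 as dots (blue called lower, red called higher, grey neither), with the list's median after H2O2 as a bar and its median untreated as a diamond. The bar lies at −1.90 and the diamond at 1.38 for the Sty1-Atf1 stress genes, whereas both lie within 0.50 of 0 for the ribosome biogenesis genes (0.31 and 0.077).

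Most genes linked to Pap1 were close to WT after peroxide, as were most genes of any kind. Over all genes 93.3% had a ratio under 2-fold, 2.64% were called higher and 4.09% lower. Of 12 tested members, 1 was lower in treated 10D, 1 higher and 10 neither, with a median of 0.052, which became −0.013 when libraries were scaled by total counts. The flavodoxin-like gene obr1, a known Pap1 target, was at 15655 CPM in treated 10D, 1214 CPM in 10M, 3174 CPM in HA, 2541 CPM in STY and 15688 CPM in WT, and the interval of its ratio, −0.012 to 0.0056, included 0. The thioredoxin reductase gene trr1 was at 9035 CPM in treated 10D, 1122 CPM in 10M, 679.9 CPM in HA, 648 CPM in STY and 7404 CPM in WT (0.29). In both genes 10D and WT were high, and 10M, HA and STY were low. The transporter genes caf5 (0.11), bfr1 (0.20) and pmd1 (0.14) and the glutathione transferase gene gst2 (−0.17) were likewise not called. The called members were the catalase gene ctt1, at the edge of the rule (−1.01), and the short-chain dehydrogenase family gene SPCC663.08c, higher in 10D (1.23).

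The enzymes that remove peroxide divided into those at the WT level and those under it. The sulfiredoxin gene srx1 was at 3722 CPM in treated 10D, 127 CPM in 10M, 82.8 CPM in HA, 34.5 CPM in STY and 4044 CPM in WT (−0.12, 95% interval −0.14 to −0.10), and the peroxiredoxin gene tpx1 was at 10922 CPM in treated 10D, 2346 CPM in HA and 9301 CPM in WT (0.23). Catalase, ctt1, was at 7903 CPM in treated 10D, 279.8 CPM in 10M, 73.9 CPM in HA, 25 CPM in STY and 15866 CPM in WT. It thus lay 2-fold under WT and far above the other 3 libraries. The glutathione peroxidase gene gpx1 was lower, at 641 CPM in treated 10D and 2431 CPM in treated WT (−1.92, 95% interval −1.95 to −1.89). The peroxiredoxin family gene pmp20 was at 139 CPM in treated 10D, 514 CPM in HA and 362 CPM in WT (−1.38), and here 10D was the lowest of the 3. The superoxide dismutase genes sod1 (−0.033) and sod2 (−0.16) and the copper chaperone gene ccs1 (0.53) were within 2-fold. Of 15 tested genes of the thioredoxin and glutathione system, 14 were neither higher nor lower and gst3 was lower (−1.18), beside 6.74% of all genes called. The highest ratio of that list was that of the glutathione reductase gene pgr1 (0.89).

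**Figure D3:**
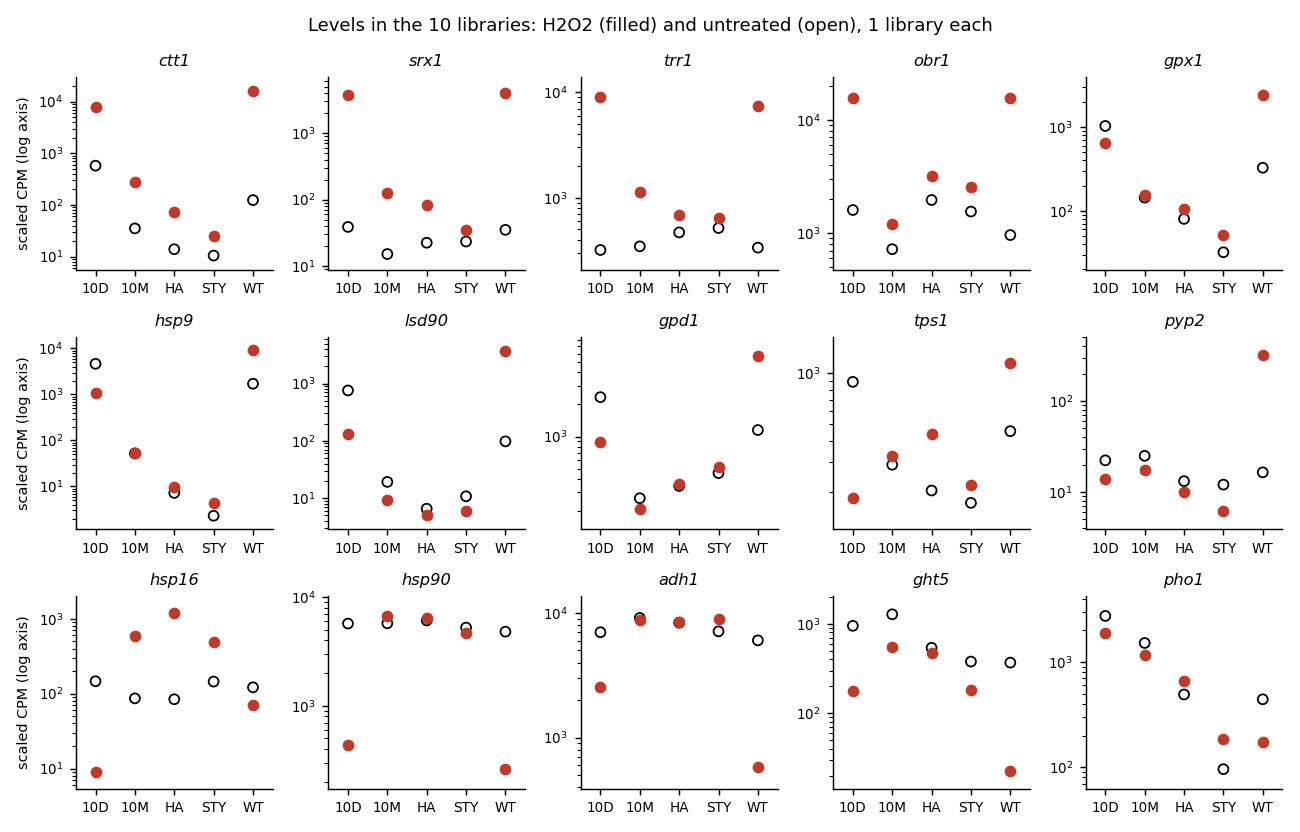
Scaled level in CPM (vertical log axis, scaled separately in each panel) of 15 genes in the 10 libraries, by strain from 10D to WT along the horizontal axis, with filled red points for H2O2 and open points for untreated cells, 1 library a point. For srx1, trr1 and obr1 the red points of 10D and WT lie close together and those of 10M, HA and STY lie lower; for pyp2 the red point is high in WT (321 CPM) and at 13.8 CPM in 10D.

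Of the Sty1 pathway itself, 3 of 9 kinase cascade genes, 2 of 10 phosphatase and downstream kinase genes and 1 of 7 tested bZIP and other stress regulator genes were called, beside 6.74% of all genes. The 3 cascade genes include sty1 itself, labelled as deleted in 10D, so its lower call bears on the strain label and not on the cascade. In the cascade, wis1, the kinase that activates Sty1, was at 68.9 CPM in treated 10D and 28.7 CPM in treated WT (1.26, 95% interval 1.08 to 1.45) and was the higher one, and the phosphorelay gene mpr1 was lower (−1.01), as was sty1 (−1.23). The histidine kinase genes mak1 (−0.068), mak2 (0.16) and mak3 (−0.14) were not called. Among 10 phosphatase and downstream kinase genes, pyp2 and srk1, a kinase that Sty1 activates (75.0 CPM in treated 10D, 507 CPM in treated WT; −2.76), were lower. The other Sty1 tyrosine phosphatase gene, pyp1, was at 87.2 CPM in treated 10D, 12 CPM in 10M, 5.73 CPM in HA, 4.05 CPM in STY and 106 CPM in WT (−0.28). Unlike pyp2, it was thus near WT and above the other 3 libraries. Among the regulators, pcr1, the partner of Atf1, was lower (128 CPM in treated 10D, 472 CPM in treated WT; −1.88), and pap1 (0.27), prr1 (0.31) and hsf1 (−0.37) were not called.

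The cAMP pathway represses many of the same stress genes when glucose is ample. It had 3 of 14 members lower and 0 higher, beside 4.09% and 2.64% of all genes. The lower members were the protein kinase A genes pka1 (−1.28) and cgs1 (−1.05) and the G protein gene gpa2 (−1.15). Of 10 tested glucose-repressed genes, 3 were higher and 2 lower (median 0.079, or 1.39 over the 5 that averaged 50 CPM or more). The lower ones were fbp1 and the invertase gene inv1 (−1.31), and the higher ones were the hexose transporter gene ght8 (2.15), the galactose-pathway gene gal10 (1.39) and the alpha-galactosidase gene mel1 (1.72). mel1 was at 193 CPM in treated 10D, 0.161 CPM in 10M, 0.101 CPM in HA, 0 CPM in STY and 58.5 CPM in WT, so both 10D and WT held it and the other 3 libraries were at or under the level that a count of 0 allows.

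Genes higher in treated 10D than in treated WT were a mixed group. The 12 protein-coding genes with the highest ratios were gdt1, a Golgi ion transporter family gene (6.54), SPAC750.01 (6.09), SPAC186.06 (5.56), the acid phosphatase gene pho1 (3.47), the protein kinase gene ppk31 (3.45), apc10, a subunit of the anaphase-promoting complex (3.40), opt3 (3.24), SPBPB10D8.02c (3.15), SPBPB2B2.06c (3.08), the glucose transporter gene ght5 (2.96), meu25, named as a meiotic gene (2.78), and the phosphate transporter gene pho84 (2.59). Of these, gdt1 was at 140.3 CPM in treated 10D, 22.5 CPM in 10M, 55.7 CPM in HA, 23.1 CPM in STY and 1.39 CPM in WT, so WT, with 13 counts, stood below every other strain. SPAC186.06 is the next coding gene to gdt1 in the reference order and also stood lowest in WT. Near-identical copies of some SPAC186, SPAC750 and SPBPB genes could split or share reads, so these counts are uncertain.

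Some high ratios were those of neighbours. pho1 and pho84 are adjacent in the reference order, and apc10 is adjacent to leu1, which was itself called higher (2.09). apc10 followed leu1 in being high in the tagged strains, at 37.2 CPM in treated 10D, 20.3 CPM in 10M and 36.2 CPM in HA, against 6.86 CPM in STY and 3.42 CPM in WT. The part of the leu1 marker in the apc10 value was not tested. Among the neighbours of the 12 highest genes that passed the level filter, 6 of 14 were also called higher, beside 2.64% of all genes. These hold 2 adjacent pairs counted from both sides, gdt1 with SPAC186.06 and pho1 with pho84. Both pairs are themselves among the 12 highest genes. Their calls were thus fixed by the choice, and 6 of 14 cannot be read against the share of all genes. The remaining ones were leu1 and SPBPB10D8.01. Among the neighbours of the 12 lowest genes, 2 of 19 were also called lower, beside 4.09% of all genes. They were fbp1 beside wwm3 and SPAC343.21 beside rds1.

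The oligopeptide transporter gene opt3 was higher in 10D than in every other treated library. It stood at 334 CPM in treated 10D, 5.64 CPM in 10M, 4.12 CPM in HA, 4.5 CPM in STY and 35.1 CPM in WT, with a log2 ratio of 10D over WT of 3.24 after H2O2 (95% interval 3.09 to 3.41) and 3.07 untreated. The glutathione transporter gene pgt1 was also higher (1.11). Those were 2 of the 4 genes of peptide and oligopeptide transport, beside 2.64% of all genes higher. The list median was 0.66, or 2.18 over the 2 that averaged 50 CPM or more.

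Several lists of nutrient uptake and central metabolism also held higher members. Over all genes, 2.64% were higher and 4.09% lower. Among 14 iron and heme uptake genes, 4 were higher, the ferroxidase gene fio1 (1.02), the iron permease gene fip1 (1.25), the siderophore transporter gene str3 (1.08) and the ferric reductase gene frp1 (1.63), and the heme uptake gene shu1 was lower (−1.17). The level of fip1 was 2259 CPM in treated 10D, 195 CPM in 10M, 273 CPM in HA, 161 CPM in STY and 951 CPM in WT, so 10D held the most, WT came next and the others were low. Untreated, fip1 was lower in 10D (179.9 CPM) than in WT (577 CPM), the opposite of the order after peroxide.

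Phosphate acquisition had 2 of 5 members higher, pho1 and pho84, and 0 lower, beside 2.64% and 4.09% of all genes. The list median was 0.48, or 2.59 over the 3 that averaged 50 CPM or more. pho84 was at 645 CPM in treated 10D, 539 CPM in 10M, 317 CPM in HA, 159.9 CPM in STY and 107 CPM in WT, whereas before treatment it was at 1036 CPM in 10D and 1203 CPM in WT. For pho84 the 2 untreated libraries were thus close, and treated WT held the least. Of the 5 phosphate genes, 2 were called higher in untreated 10D than in untreated WT, and pho84 was not among them. Of 5 tested hexose transporters, ght5 and ght8 were higher and ght2 was lower (−2.06), with a median of −0.31, or 2.15 over the 3 that averaged 50 CPM or more. ght5 was at 178 CPM in treated 10D, 546 CPM in 10M, 474 CPM in HA, 182 CPM in STY and 22.8 CPM in WT, with WT again lowest.

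Glycolysis and fermentation had 3 of 17 tested members higher and 0 lower, beside 2.64% and 4.09% of all genes, with a median of 0.63. The alcohol dehydrogenase gene adh1 was at 2562 CPM in treated 10D, 8784 CPM in 10M, 8498 CPM in HA, 8905 CPM in STY and 581 CPM in WT (2.14, 95% interval 2.1 to 2.18), and the enolase gene eno101 was at 1748 CPM in treated 10D, 10784 CPM in HA and 652 CPM in WT (1.42). The pyruvate decarboxylase gene pdc101 was also called (1.07), and the lowest ratio was that of its relative pdc201 (−0.94). In adh1 and eno101, 10D lay between WT and the other 3 libraries, closer to WT than to HA on the log scale for eno101 and closer to HA for adh1.

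Most heat shock genes were within 2-fold of WT and 4 of 22 were below it, beside 4.09% of all genes. Of 22 members, hsp16 (−2.96), the HSP70 gene ssa1 (−2.23), the HSP40 gene psi1 (−1.93) and the disaggregase gene hsp104 (−1.64) were lower in treated 10D than in treated WT, and 0 were higher, the top ratio being that of the HSP40 gene mas5 (0.73). The hsp16 level was 8.91 CPM in treated 10D, 586 CPM in 10M, 1200.0 CPM in HA, 486 CPM in STY and 69.9 CPM in WT. hsp90 was at 431 CPM in treated 10D, 6691 CPM in 10M, 6491 CPM in HA, 4697 CPM in STY and 263 CPM in WT (0.72). For both genes 10D and WT were low and the other 3 libraries high, and for hsp16 10D was the lowest of all.

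Counts in the lists that follow stand beside 2.64% of all genes higher and 4.09% lower. Among 10 core histone genes, 4 were lower, hta2 (−1.16), hht3 (−1.39), hhf1 (−1.06) and hhf3 (−1.83), with a list median of −0.81. The histone genes of a class are near-identical copies, so the share of each copy is uncertain. Of 13 genes of sulfate assimilation and methionine metabolism 3 were higher, the sulfate adenylyltransferase gene sua1 (1.11), the sulfite reductase gene met10 (1.20) and str3, which is in that list by name and in fission yeast encodes the siderophore transporter given above. Of 10 tested mating and meiosis regulators, 3 were higher and 1 lower. The higher ones included ste11, the master regulator of mating, at 59.3 CPM in treated 10D, 2.51 CPM in HA and 14.0 CPM in WT (2.08), and the lower one was fus1 (−1.16).

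Of 141 cytosolic ribosomal protein genes, 3 were higher, beside 2.64% of all genes, and 0 lower, with a median of 0.44, and duplicated ribosomal genes can share reads. None of the 66 nucleolar ribosome biogenesis genes (median 0.31), 18 proteasome genes (0.16), 16 tested G1-S transcripts (0.18), 16 tested cell separation genes (0.15), 16 cell wall synthases (0.17), 20 sterol genes (0.38) or 13 housekeeping controls (0.091) was called. Of 302 noncoding RNAs, 27 were higher and 38 lower (median −0.19), beside 2.64% and 4.09% of all genes, and of 4641 protein-coding genes 104 were higher and 164 lower (median 0.064). Without a stated strand setting, reads of a noncoding RNA and of a gene that overlaps it cannot be told apart.

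The untreated libraries show how much of the difference was there before peroxide. Untreated 10D against untreated WT called 340 of the same 4959 genes (6.86%), 240 higher in 10D (4.84%) and 100 lower (2.02%), so that, unlike after treatment, more genes were higher than lower. Of the 203 genes lower after H2O2, 53 were higher in untreated 10D (26.1% of the 203 and 22.1% of the 240), 34 were lower (16.7% of the 203 and 34% of the 100) and 116 were neither. Of the 131 genes higher after H2O2, 58 were already higher untreated (44.3% of the 131 and 24.2% of the 240), 4 were lower and 69 were neither. These 2 comparisons use different libraries.

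The Sty1-Atf1 stress list was on opposite sides before and after. Its median was 1.38 untreated, with 16 of 28 members higher in 10D and 1 lower, against −1.90 after H2O2. The small stress proteins had a median of 1.61 untreated (11 of 17 higher, 1 lower), and trehalose and glycerol metabolism 0.96 (5 of 11 higher, 0 lower). ddr48, for example, was at 940.1 CPM in untreated 10D and 53.6 CPM in untreated WT (4.13). hsp9 was at 4639.6 CPM in untreated 10D and 1712 CPM in untreated WT (1.44), so untreated 10D was above untreated WT for both. For the Pap1-linked genes the untreated median was 0.68, with 4 of 12 higher in 10D and 0 lower, beside 4.84% and 2.02% of all genes, and srx1 (0.14) and trr1 (−0.074) were within 2-fold. An exception among the stress genes was ecl1, lower in untreated 10D as well (−1.28).

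**Figure D4:**
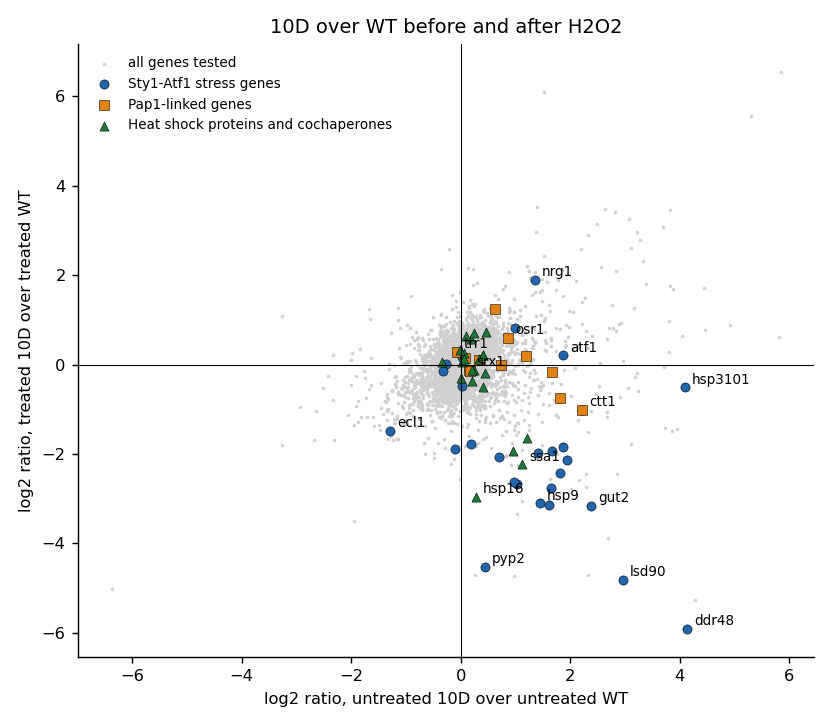
Log2 ratio of treated 10D over treated WT (vertical axis) against that of untreated 10D over untreated WT (horizontal axis) for 4959 genes (grey), with Sty1-Atf1 stress genes (circles), Pap1-linked genes (squares) and heat shock genes (triangles) marked. Many stress genes lie at lower right, higher in 10D before H2O2 and lower after it (ddr48 at 4.13 and −5.91), while Pap1-linked genes lie between −1.01 and 1.23 on the vertical axis.

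The H2O2 responses of each strain, which share the libraries above, give the same values in another form. Within 10D, treated over untreated called 415 genes higher (8.37%) and 313 lower (6.31%), and within WT 543 higher (10.9%) and 261 lower (5.26%). Of the 203 genes lower in treated 10D than in treated WT, 124 were higher after H2O2 in WT. In 10D, 27 of those 124 were also higher after H2O2, 61 were neither and 36 were lower. ctt1 was higher by 3.78 in 10D and by 7.0 in WT on the log2 scale, from unequal starting levels of 576 CPM in 10D and 124 CPM in WT. hsp9 had a response of −2.12 in 10D and 2.42 in WT, so it was lower after H2O2 in 10D and higher in WT. In the Pap1-linked list the median response was 3.54 in 10D and 4.69 in WT, with 11 of 12 tested members higher in each.

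How far treated 10D resembled WT where WT and STY differed was also measured with separate libraries. Treated 10D and treated HA, both labelled Δsty1, had similar sty1 levels and differ by label in the form of the tagged Atf1. Genes were chosen by treated WT against treated STY at 4-fold and were then scored by treated 10D over treated HA. They came from 5027 genes that averaged 10 CPM or more over treated 10D, HA, STY and WT. This filter thus used the scored libraries as well, and a low gene could pass through 1 library where it was high. Genes that passed in that way were not counted. Of 375 genes higher in WT than in STY (7.46%), 310 were at least 2-fold higher in 10D than in HA, or 82.7%, against 17.1% of all genes, and 3 were lower. Their median log2 ratio of 10D over HA was 1.95, beside 0.14 over all genes. Of 111 genes lower in WT than in STY (2.21%), 101 were at least 2-fold lower in 10D than in HA, or 91.0%, against 7.92% of all genes, with a median of −2.80. In the same sets, 10M over HA, which shares the HA library, had medians of 0.42 and −0.57, with 76 of 375 genes higher (2.23% of all genes were) and 34 of 111 lower (1.33% of all genes). Choosing the sets at 2-fold or 8-fold moved the medians to 1.25 or 2.92 in the first set and to −0.89 or −3.92 in the second. With a mean of at least 50 CPM they were 2.04 in the first set and −2.31 in the second.

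The mating type markers also set libraries of this comparison apart. After H2O2 the 6 M genes summed to 108 CPM in 10D, 308 CPM in 10M, 53.1 CPM in HA, 63.2 CPM in STY and 111 CPM in WT. Untreated, they summed to 483 CPM in 10D, 549 CPM in 10M, 98.5 CPM in HA, 82.3 CPM in STY and 484 CPM in WT, so HA and STY held the least at both times. The 4 P genes summed after H2O2 to 459 CPM in 10D, 280.1 CPM in 10M, 228 CPM in HA, 295 CPM in STY and 715 CPM in WT. Untreated, the P genes summed to 577 CPM in 10D and 470 CPM in 10M. They summed to 390 CPM in HA, 400 CPM in STY and 460 CPM in WT. No marker was at 0 in a treated library, and of all 10 markers 1, mfm3 in untreated HA, was at 0 in an untreated one. The M gene mam2, a pheromone receptor gene, was at 32.9 CPM in untreated 10D, 51.2 CPM in 10M, 3.08 CPM in HA, 4.2 CPM in STY and 20.7 CPM in WT. The regulator gene map1, named after its values had been seen, was at 11.4 CPM in treated 10D, 28.7 CPM in 10M, 1.81 CPM in HA, 1.35 CPM in STY and 12 CPM in WT. STY was the denominator of the ratio that chose the genes and HA that of the ratio that scored them, and the part of this difference in the set result was not tested.

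**Figure D5:**
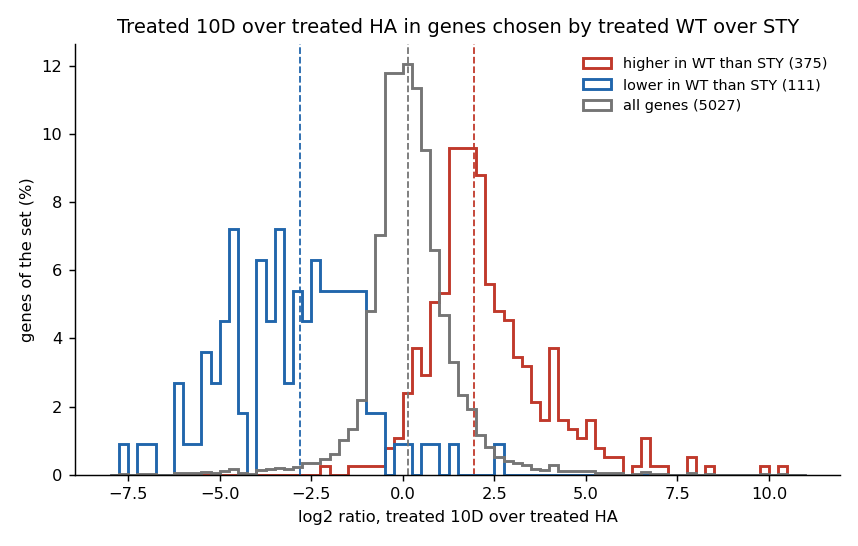
Share of each set's genes (vertical axis, percent) by log2 ratio of treated 10D over treated HA (horizontal axis), for 375 genes higher in treated WT than treated STY (red), 111 genes lower in WT than STY (blue) and 5027 genes in all (grey). Dashed lines mark the medians at 1.95, −2.80 and 0.14, so that the red set lies to the right and the blue set to the left of all genes.

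Set against WT itself, which helped to choose the genes and so gives a description only, 253 of the 375 genes were neither higher nor lower in treated 10D, 100 were lower and 22 were higher. Most of the 100 lower genes were still above HA: 72 were at least 2-fold higher in 10D than in HA, 25 were neither and 3 were lower. By list, 8 Pap1-linked genes were among the 375, of which 8 were above HA and 1 was below WT, while 23 Sty1-Atf1 stress genes were among them, of which 19 were above HA and 18 below WT. Of 13 small stress proteins among them, 13 were above HA and 10 below WT. Over all 375 genes, 82.7% were above HA and 26.7% below WT, so being above HA was usual for any gene of this set. Of the 111 genes lower in WT than in STY, 80 were neither in 10D against WT, 24 were higher and 7 were lower. The 111 included 10 heat shock genes and 9 genes of glycolysis and fermentation. Of these, 10 and 9 were lower in 10D than in HA, beside 91.0% of all 111, so both counts are near the share of the set.

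The 6 genes of the 375 nearest to WT were SPBC1271.10c, obr1, the small nucleolar RNA snoU14, the TRP-like channel gene pkd2, the uridine hydrolase gene urh1 and zwf1. Glucose-6-phosphate dehydrogenase, zwf1, the source of NADPH in the pentose phosphate pathway, was at 3285 CPM in treated 10D, 529 CPM in 10M, 491 CPM in HA, 608 CPM in STY and 3234 CPM in WT. urh1 was at 220.5 CPM in treated 10D, 40.2 CPM in HA, 51.1 CPM in STY and 219 CPM in WT. For both genes the choice fixed WT above STY and 10D near WT, while HA, which it did not fix, was low. The 6 genes farthest below WT were the first 6 of the lowest ratios, ddr48, SPACUNK4.17, SPAPJ695.02, lsd90, SPAPB1A11.03 and SPAC4H3.03c. Against HA, the ratio of 10D was 3.19 for ddr48, 2.83 for SPACUNK4.17 and 4.62 for lsd90, and 0.47 for pyp2, which was also among the lowest ratios to WT.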

How the data were processed

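PolyA RNA sequencing gave 10 libraries, 1 for each of 5 strains untreated or after 1 mM H2O2 for 15 min. The deposited table holds raw counts of reads per gene. The authors used FastQC, TopHat2 2.1.1 and HTSeq, per the submitters' processing notes. The genome build, annotation, strand setting and filters are not given in the sources used here. Columns were joined to samples by the column names in the sample descriptions. Of 7017 genes, 6843 matched names in the RefSeq table of ASM294v3 and 174 did not, and the table supplied only symbols, gene types and gene order. No sequence or coordinate was used, and promoter motifs were not computed.

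Counts were scaled with TMM factors (edgeR 4.0.16, R 4.3.3), which ran from 0.919 to 1.11. Ratios are log2 of scaled CPM, with 2 as the prior count (Python 3.11.15, scipy 1.17.1), with exact Clopper-Pearson 95% intervals from the counts, and cover genes averaging 10 CPM or more over treated 10D and treated WT. A call needed 2-fold and an interval excluding 1. With 1 library per group no test was run. Counts were simulated with counting error only for the 4959 genes of treated 10D against treated WT. In them, 100% of 4-fold changed genes and 0% of unchanged genes were called, and 95.5% of intervals held the true ratio. No spread between cultures was simulated, so these rates do not give the share of false calls between single libraries. Totals ran from 9178795 to 26503471 counts, which sets the intervals.

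The text names the 12 highest and 12 lowest called protein-coding ratios, the ends and best-known members of the lists (lists given by counts and medians name few or none), the label checks sty1, atf1, leu1 and ura4, and the 6 genes nearest to and 6 farthest below WT among those 4-fold higher in WT than STY. The comparison, its members and 38 gene lists were chosen with earlier results of these data known, and 1 more list, on the tricarboxylic acid cycle, was added after the ratios had been seen. Of the listed names, 13 matched no gene. Alternatives were other scalings (DESeq2 1.42.0 size factors and total counts), filters, folds and prior counts.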

Additional observations from a re-analysis of the deposited data

Results flagged for a closer look

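Genes whose H2O2 response ran in opposite directions in 10D and WT were looked for among the 4959 genes tested. There were 44 genes at least 2-fold lower after H2O2 in 10D and at least 2-fold higher after H2O2 in WT, and 0 genes the other way round. Each response is 1 library against 1, so the difference between strains was not tested. Of the 44, 36 were also among the 203 genes lower in treated 10D than in treated WT, which shares the treated libraries. By list, the 44 held 11 of 29 Sty1-Atf1 stress genes, 8 of 18 small stress proteins and 5 of 12 genes of trehalose and glycerol metabolism. These 3 lists share members. Of 14 Pap1-linked genes, 0 were among the 44. With 44 of 4959 genes in all, that does not set the Pap1-linked list apart.

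Among the genes named for their low ratio to WT, 9 were of this kind. The log2 response of ddr48 was −4.07 in 10D and 5.97 in WT, and that of SPACUNK4.17 was −5.27 in 10D and 4.27 in WT. For lsd90 it was −2.55 in 10D and 5.22 in WT, and for rtc3 −2.38 in 10D and 4.18 in WT. wwm3 was at −2.13 in 10D and 4.88 in WT, and SPAC4H3.03c at −1.69 in 10D and 3.27 in WT. The glycerol-3-phosphate dehydrogenase gene gut2 gave −1.97 in 10D and 3.56 in WT, rds1 gave −1.63 in 10D and 3.12 in WT, and SPAPB1A11.03, which rests on 39 counts in treated 10D, gave −1.5 in 10D and 4.18 in WT.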

How the results depend on the processing

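No paired analysis was possible because each group has 1 library, and no library could be left out for the same reason. DESeq2 size factors shifted the median log2 ratio of all genes by −0.0074 and total counts by −0.064, and neither moved a count of called genes by over 1.5 times. With total counts 33.7% of called genes were higher in 10D, against 39.2% with TMM factors, and with no filter on the level 31.1% were. Counts of higher and lower genes were 79 and 117 with a mean of at least 50 CPM, 207 and 459 with no filter, and 29 and 41 at 4-fold. For treated 10D over treated HA, the median in genes higher in WT than in STY was 1.25 and 2.92 when these were chosen at 2-fold and 8-fold. In genes lower in WT than in STY it was −0.89 and −3.92 at those folds, −3.17 with total counts and −2.31 with a mean of at least 50 CPM. With 10M in place of HA, an alternative chosen after the data had been seen, the medians were 1.47 and −2.17. The cause of these shifts was not tested. Under total counts the medians of the Pap1-linked genes (−0.013), heat shock genes (−0.0075), mating regulators (−0.042) and all genes (−0.0092) changed sign from values just above 0. Under the filter of 50 CPM the medians of hexose transporters (2.15), M genes (−0.50), flocculins (0.17) and noncoding RNAs (0.0044) did so. That filter also moved the medians of glucose-repressed genes to 1.39 (5 of 10 left), phosphate acquisition genes to 2.59 (3 of 5 left) and peptide transport genes to 2.18 (2 of 4 left), and it left 3 of 5 hexose transporters and 1 of 3 M genes. No called ratio of a named gene changed sign under the scalings and prior counts tried. Depth limits the genes with few reads in 1 library, such as SPAPB1A11.03 and gdt1, and single libraries limit every value.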

Other observations

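Genes of the tricarboxylic acid cycle and cytochrome c were gathered into a list after their ratios had been seen, so their count is a description. Of 18 members, 6 were called lower in treated 10D than in treated WT and 0 higher, with a median log2 ratio of −0.66 (6.74% of all genes were called in either direction). The cytochrome c gene cyc1, which carries electrons in respiration, was at 73.6 CPM in treated 10D, 399.6 CPM in 10M, 361 CPM in HA, 553 CPM in STY and 343 CPM in WT (−2.22), and 10D was the lowest of these. The succinate dehydrogenase gene sdh2 was at 24.0 CPM in treated 10D, 338 CPM in 10M, 293 CPM in HA, 281 CPM in STY and 91.0 CPM in WT (−1.92). The citrate synthase gene cit1 differed in pattern, at 351 CPM in treated 10D, 270.5 CPM in 10M, 305 CPM in HA, 376 CPM in STY and 881 CPM in WT (−1.33): WT was the high library and 10D lay among the others. The aconitase gene aco1 (−1.30), the malate dehydrogenase gene mdh1 (−1.61) and the NADH dehydrogenase gene ndi1 (−1.75) were the other called members. Untreated, 0 of the 18 were called in either direction (median −0.058).

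Smaller lists were counted between treated 10D and treated WT beside 6.74% of all genes called. Of 13 tested genes of nitrogen uptake and amino acid transport, 2 were lower, beside 4.09% of all genes, the ammonium transporter gene amt3 (−1.30) and the protease gene isp6 (−2.08). Of 24 genes of arginine, lysine, histidine and leucine synthesis, leu1, the strain marker, was the 1 that was higher. Of 8 thiamine-repressible genes tnr3 was higher (1.03), and of 9 tested genes of copper and zinc homeostasis and 8 tested flocculins 0 were called. Of 13 Tf2 retrotransposon copies, 3 passed the level filter and 2 of these were lower in 10D; the copies are near-identical, so their counts are uncertain.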
